A study of Mus musculus with 2 samples.

Results

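Cxcl12, the chemokine gene, and the genes of its 2 receptors, Cxcr4 and Ackr3, were followed through the cells of subcutaneous 4T1 mouse tumours. The 3 genes were chosen by symbol from the 32285 genes listed in each library, and all 3 had UMIs (unique molecular identifiers, each standing for 1 captured transcript) in both libraries. One library came from tumours treated by AIE COF-mediated phototherapy (AIE COF is a preparation of covalent organic frameworks), and the other from tumours of the PBS control. Both were taken on day 7 after phototherapy and prepared with the MobiCube kit, which reads the 3' ends of transcripts in single cells. 4T1 is a mouse mammary carcinoma line that grows in BALB/c mice, while the labels name the mice C57BL/c, and the conflict is not settled by the files. How many animals or tumours were pooled for a library is not stated in the labels. With 1 library per group there is no replicate and no test, and every interval below is an exact 95% interval that covers counting error only.

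CXCL12 is a chemokine made mainly by stromal cells, among them fibroblasts, endothelial cells and the reticular cells of bone marrow and lymphoid tissue. CXCR4 is the G protein-coupled receptor through which it attracts lymphocytes and myeloid cells and holds them in place. ACKR3 binds CXCL12 with high affinity, does not couple to G proteins in the usual way, and takes the chemokine into the cell, so it is described as a scavenging receptor. In tumours, fibroblasts and vessels are known sources of CXCL12, and CXCR4 is known on infiltrating leukocytes and on some carcinoma cells. On GRCm38 with the GENCODE M21 annotation, Cxcl12 (ENSMUSG00000061353) is at chr6:117168535-117181367 on the plus strand. Cxcr4 (ENSMUSG00000045382) is at chr1:128588199-128592293 on the minus strand, and Ackr3 (ENSMUSG00000044337) is at chr1:90203980-90216751 on the plus strand. 0 annotated genes overlapped any of the 3.

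After filtering, 8619 cells with 102637397 UMIs remained in the AIE COF library and 7864 cells with 126754919 UMIs in the PBS library, with medians of 3884 and 6341 UMIs per cell. The libraries shared 39 cell barcodes. Cells were clustered and named from marker genes. B-like cells were 13.9% of AIE COF cells and 4.64% of PBS cells, and T-like cells were 17.8% and 8.71%. The labels give the cell type as 4T1. The cells most like it formed clusters with under 100 CPM of Ptprc, which encodes the pan-leukocyte protein CD45. CPM here is a gene's UMI count in a class over all UMIs of that class, on the usual CPM scale. They held Hmga2 at 364 CPM and Rhox5 at 750 CPM over both libraries where RNA was abundant, but the epithelial genes Epcam and Krt18 only at 0.503 and 0.0114 CPM. Because 3 to 5 of the 10 tumour markers were met in the RNA-rich clusters, these cells are called Ptprc-low here, RNA-rich (2406 AIE COF and 2707 PBS cells) or RNA-poor (913 and 1847 cells), and not given a tumour name.

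Stromal-like cells held most of the Cxcl12. They were 54 of 8619 AIE COF cells and 28 of 7864 PBS cells (0.627% and 0.356%), yet they carried 117 of 167 Cxcl12 UMIs in the AIE COF library and 79 of 112 in the PBS library, which is 70.1% and 70.5%. With the PBS library clustered alone, no cluster met the naming rule for stromal cells: 55 of the 79 UMIs then lay in a cluster of 24 cells with all 10 endothelial markers and 24 in a cluster of 174 cells with 6 of 10 fibroblast markers. Summed over these cells, Cxcl12 stood at 286 CPM (237 to 343) in AIE COF tumours and 275 CPM (218 to 343) in PBS tumours. The ratio of AIE COF over PBS was 1.04 (0.775 to 1.40), so no difference was detectable at this depth. A Cxcl12 UMI was found in 18 of 54 AIE COF and 14 of 28 PBS stromal-like cells. With every cell thinned to 1000 UMIs, the shares were 14.8% (6.62 to 27.1) and 10.7% (2.27 to 28.2), and thinned to 500 UMIs they were 11.1% and 17.9%. Median depths were 5179 and 7761.5 UMIs.

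**Figure D1:**
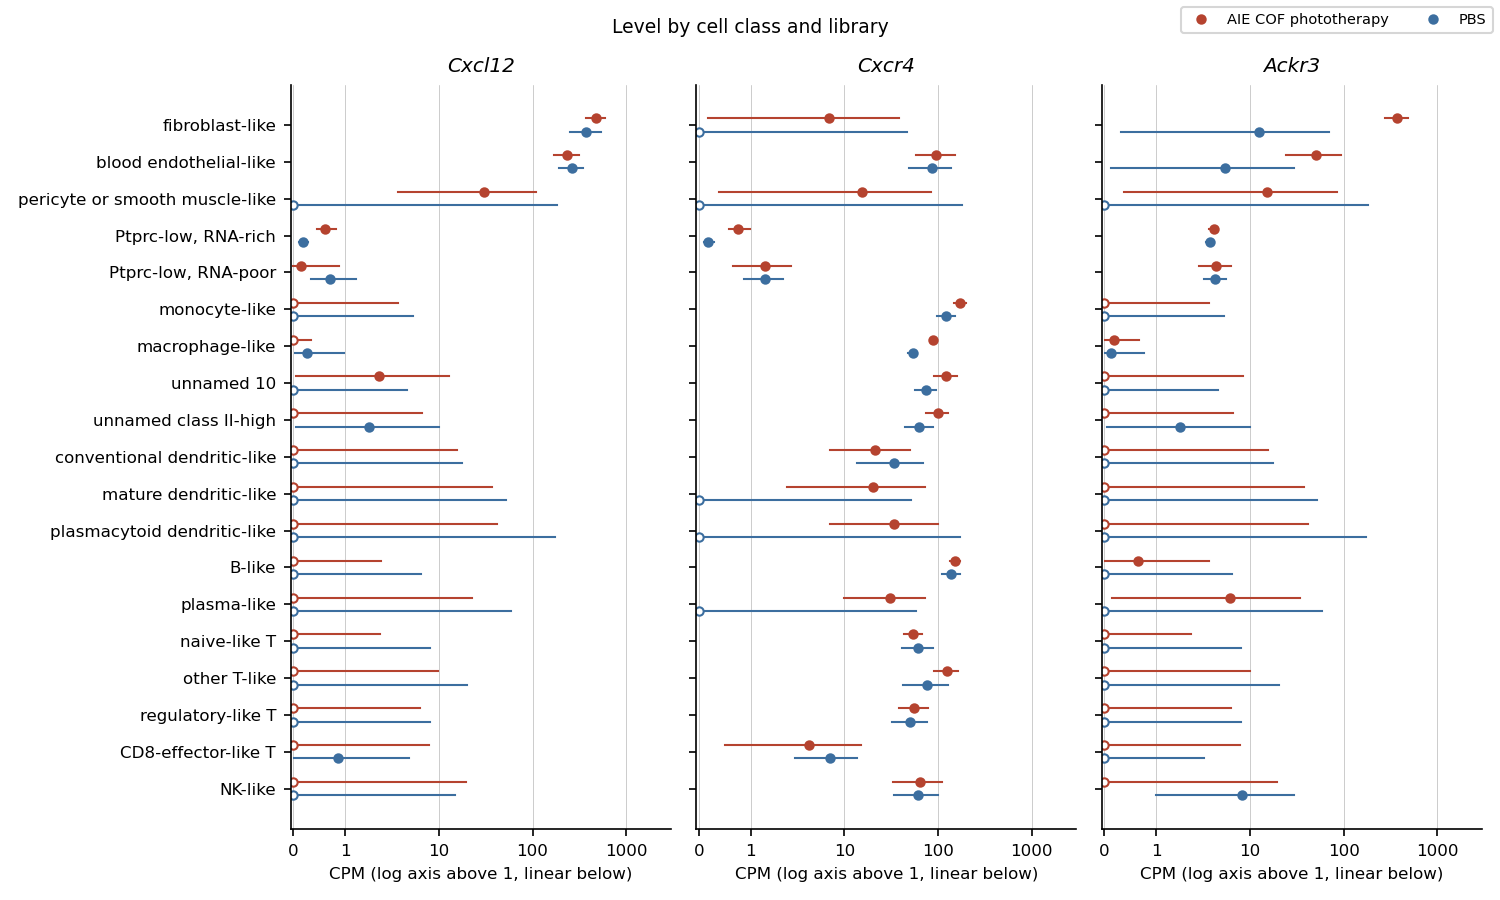
Level of Cxcl12, Cxcr4 and Ackr3 (CPM) in each cell class, AIE COF (red) above PBS (blue), with exact 95% Poisson intervals, on an axis that is linear below 1 CPM and logarithmic above; open circles mark 0 UMIs. Cxcl12 stands highest in fibroblast-like and blood endothelial-like cells, Cxcr4 in leukocyte classes and blood endothelial-like cells, and Ackr3 in fibroblast-like cells of the AIE COF library.

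Fibroblast-like cells, marked by Col1a1, the gene of the main collagen I chain (25198 CPM over both libraries), held 69 Cxcl12 UMIs in 19 AIE COF cells and 30 in 7 PBS cells. That was 475 CPM (370 to 601) in AIE COF tumours and 377 CPM (254 to 538) in PBS tumours, a ratio of 1.26 (0.81 to 2.0). Single AIE COF fibroblast-like cells held from 0 to 22 Cxcl12 UMIs with a median of 1, and single PBS fibroblast-like cells from 0 to 11 with a median of 5. The cells of the 2 libraries overlapped over most of that range, and 10 of 19 AIE COF and 5 of 7 PBS cells had a UMI. Without the highest cell of each library, the levels were 350 CPM in AIE COF and 338 CPM in PBS fibroblast-like cells.

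Blood endothelial-like cells, which express the vessel genes Pecam1, Cdh5 and Kdr, were the other source. They held 46 Cxcl12 UMIs in 25 AIE COF cells and 49 in 19 PBS cells, or 233 CPM (170 to 310) and 262 CPM (194 to 347), a ratio of 0.89 (0.58 to 1.36). They fell into 2 clusters. In cells led by Flt1, a VEGF receptor gene, Cxcl12 stood at 245 CPM in AIE COF tumours and 146 CPM in PBS tumours (41 and 19 UMIs in 21 and 12 cells), with a ratio of 1.68 (0.95 to 3.06). A single AIE COF cell with 26 Cxcl12 UMIs, which also held 83 UMIs of Cdh5 and 23 of Pecam1, gave most of that: without the highest cell of each library the levels were 122 and 108 CPM. In the cells led by Lrg1, Cxcl12 stood at 165 CPM in 4 AIE COF cells and 529 CPM in 7 PBS cells (5 and 30 UMIs), with a ratio of 0.31 (0.09 to 0.81). Of the 5 AIE COF UMIs 4 lay in 1 cell, and without the highest cell of each library the levels were 37.5 and 337 CPM.

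The Lrg1-led cells carried some transcripts known from venular endothelium. Over both libraries they held 18 UMIs of Selp and 10 of Sele, the genes of the selectins that slow leukocytes on the vessel wall, 17 of Glycam1, a gene of high endothelial venules, and 9 of Ackr1, which marks venules. The Flt1-led cells held 1, 0 and 0 UMIs of Selp, Sele and Glycam1 in 33 cells, against 11 Lrg1-led cells. Ackr1 was not confined to the Lrg1-led cells, as fibroblast-like cells held 14 UMIs of it. Madcam1, looked up with these genes, had 0 UMIs in both endothelial clusters. The Lrg1-led cells also held 18 UMIs of Rgs5, against 0 in the Flt1-led cells. Apln, a tip-cell gene, was at 685 CPM in Flt1-led and 138 CPM in Lrg1-led cells, while Esm1, looked up with it, had 0 UMIs in both. These genes were looked up after the clusters had been seen. Pericyte or smooth muscle-like cells, with Rgs5 at 4548 CPM, held 2 Cxcl12 UMIs in 10 AIE COF cells and 0 in 2 PBS cells.

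In summed UMIs, the order of Cxcl12 levels among stromal cells differed between the libraries, which held only 4 and 7 Lrg1-led cells. In the AIE COF library it was fibroblast-like (475 CPM, 370 to 601), Flt1-led (245 CPM, 176 to 332), Lrg1-led (165 CPM, 53.6 to 385) and pericyte or smooth muscle-like cells (30.5 CPM, 3.69 to 110), and the intervals of neighbours overlapped after the first step. In the PBS library it was Lrg1-led (529 CPM, 357 to 755), fibroblast-like (377 CPM, 254 to 538) and Flt1-led cells (146 CPM, 87.8 to 228), with an overlap only at the first step, and the 2 pericyte or smooth muscle-like cells held none. These intervals do not cover the spread between cells. Without the highest cell of each group, the PBS levels were 337 CPM in Lrg1-led, 338 CPM in fibroblast-like and 108 CPM in Flt1-led cells. The AIE COF levels were then 37.5, 350 and 122 CPM in these groups. The PBS lead of Lrg1-led over fibroblast-like cells was thus not kept, while Lrg1-led and Flt1-led cells still changed places. Over both libraries, a Cxcl12 UMI was found in 15 of 26 fibroblast-like, 6 of 11 Lrg1-led, 10 of 33 Flt1-led and 1 of 12 pericyte or smooth muscle-like cells. The cells were clustered on 2000 variable genes of these data, and these 3 genes were not kept out of that choice, so differences between classes are descriptions.

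**Figure D2:**
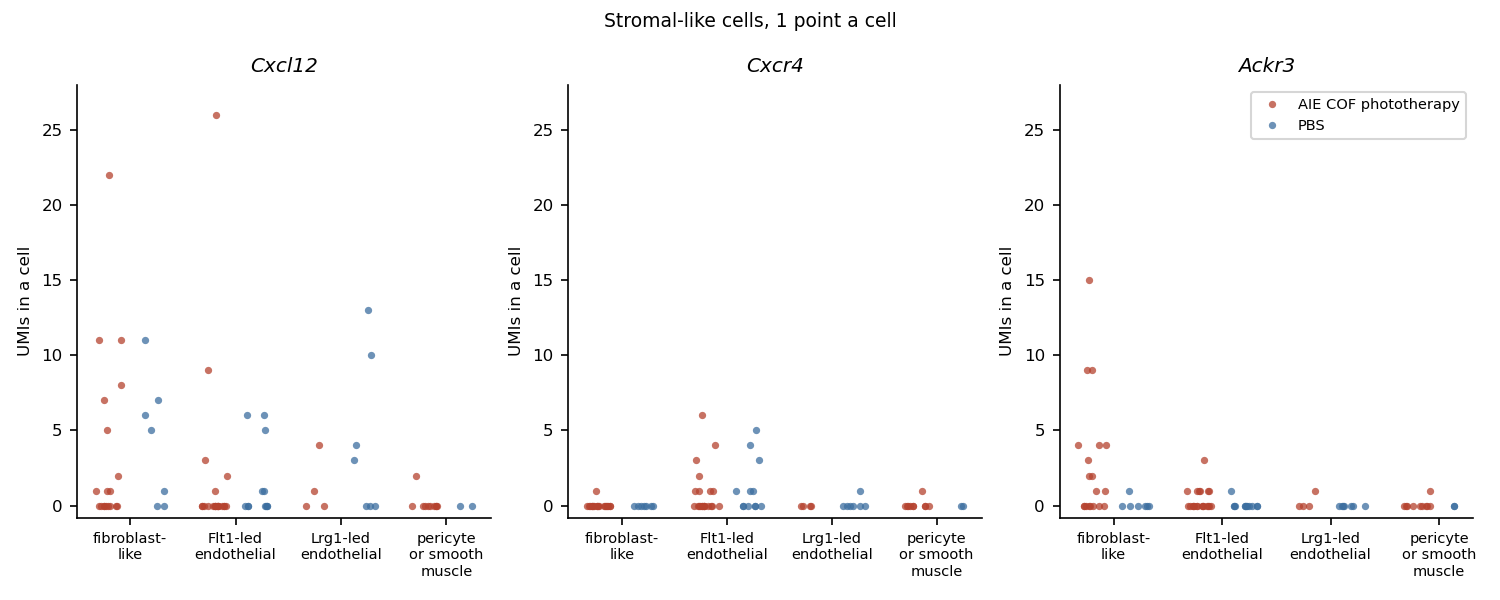
UMIs of Cxcl12, Cxcr4 and Ackr3 in every single stromal-like cell, by stromal group, with AIE COF cells left of PBS cells; each point is 1 cell. Cxcl12 reached 22 UMIs in a fibroblast-like cell and 26 in a Flt1-led endothelial cell of the AIE COF library and 13 in a Lrg1-led cell of the PBS library, and Ackr3 in fibroblast-like cells reached 15 UMIs in the AIE COF and 1 in the PBS library.

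Cxcl12 was listed at 0 UMIs in most leukocytes. No UMI was found in 1202 AIE COF and 365 PBS B-like cells, which allows shares of up to 0.25% and 0.822%, nor in 292 and 158 monocyte-like cells, which allows up to 1.03% and 1.90%. Such limits are for cells with a captured UMI, at median depths of 1154.5 and 1483 UMIs in B-like cells, and not for cells that express the gene. Macrophage-like cells held 0 UMIs in 1328 AIE COF cells and 2 in 971 PBS cells. As a measure of background in droplets, the 0 UMIs in AIE COF macrophage-like cells allow up to 0.273 CPM, and the 2 UMIs in PBS macrophage-like cells were 0.271 CPM (0.0329 to 0.98).

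Ptprc-low, RNA-rich cells held most of the remainder at a low level. There were 47 Cxcl12 UMIs in 15 of 2406 AIE COF cells and 18 in 13 of 2707 PBS cells, or 0.612 and 0.183 CPM, with a ratio of 3.35 (1.91 to 6.12). In 12 of the 15 AIE COF cells and 11 of the 13 PBS cells there was a single UMI. One AIE COF cell alone held 25 of the 47 UMIs. That cell had 45932 UMIs in all, with 110 of Col1a1, 117 of Col3a1 and 4 of Pdgfra, genes of fibroblasts, and also 39 of Rhox5 and 2 of Hmga2. The summed fibroblast markers in all Ptprc-low, RNA-rich cells were 3614 CPM in AIE COF and 3983 CPM in PBS tumours, with 10 of 10 members detected in each. Their part in the Cxcl12 values was not tested. Ptprc-low, RNA-poor cells held 1 UMI in AIE COF and 10 in PBS tumours.

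Over whole tumours, Cxcl12 was at 1.63 CPM (1.39 to 1.89) in the AIE COF library and 0.884 CPM (0.728 to 1.06) in the PBS library, from 167 and 112 UMIs in 36 and 38 cells. The ratio was 1.84 (1.44 to 2.36). In whole-tumour sums, more cells of a type and more RNA per cell cannot be told apart, and stromal-like cells made up a larger share of the AIE COF library. With the AIE COF classes weighted to the PBS class mix, the ratio was 1.32. It turned below 1 when each cell had equal weight or was thinned to 1000 UMIs, with log2 ratios of -0.18 and -0.16, which carry no interval. Thinned, a Cxcl12 UMI was left in 11 of 7469 AIE COF cells and 6 of 7056 PBS cells. These shares, 0.147% (0.0735 to 0.263) and 0.085% (0.0312 to 0.185), went the other way and overlapped in their intervals. Cells with at least 5 Cxcl12 UMIs numbered 10 in each library, 8 AIE COF and 9 PBS cells of them stromal-like. Among the 15629 genes with at least 50 UMIs, 8.5% were at least 1.5-fold higher in AIE COF tumours and 4.89% at least 1.5-fold lower, and the median log2 ratio was 0.0099.

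In summed UMIs, Cxcr4 was the member that differed most between the whole tumours, and its transcripts lay in leukocytes and vessels. The AIE COF library held 1773 Cxcr4 UMIs in 1153 of 8619 cells and the PBS library 827 in 551 of 7864 cells. That was 17.3 CPM (16.5 to 18.1) in AIE COF and 6.52 CPM (6.09 to 6.98) in PBS tumours, a ratio of 2.65 (2.44 to 2.88). The share of cells with a UMI was 13.4% in AIE COF and 7.01% in PBS tumours, and 4.89% and 2.44% with cells thinned to 1000 UMIs, which leaves out 1150 AIE COF and 808 PBS cells that were shallower. Of the classes that carry Cxcr4, B-like, T-like, macrophage-like (15.4% and 12.3%) and monocyte-like cells (3.39% and 2.01%) were larger shares of AIE COF than of PBS cells. Smaller shares were an unnamed cluster of low depth (4.70% and 8.48%) and unnamed cells with high MHC class II genes (1.06% and 1.20%). With the PBS class mix given to the AIE COF library, its Cxcr4 level was 9.73 CPM, and the ratio to PBS was 1.49.

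**Figure D3:**
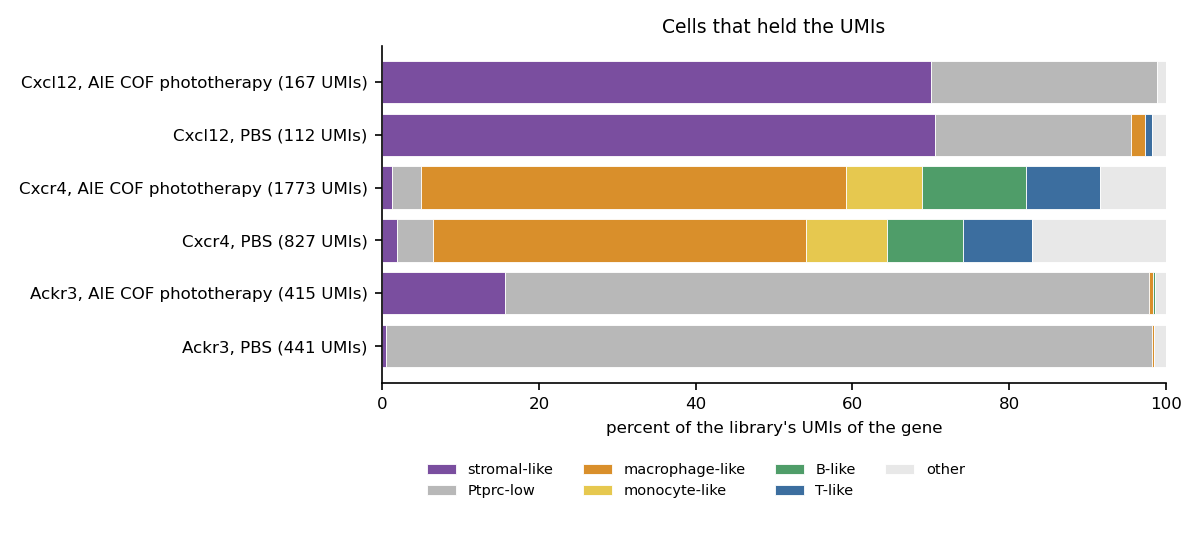
Percent of each library's Cxcl12, Cxcr4 and Ackr3 UMIs held by each cell class, AIE COF and PBS bars side by side. Stromal-like cells held 70.1% and 70.5% of Cxcl12, macrophage-like cells 54.2% and 47.5% of Cxcr4, and Ptprc-low, RNA-rich cells 75.7% and 84.1% of Ackr3.

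Macrophage-like cells held the most Cxcr4 UMIs, 961 of 1773 in AIE COF tumours and 393 of 827 in PBS tumours (54.2% and 47.5%). B-like cells held 13.3% and 9.67% of the UMIs, monocyte-like cells 9.70% and 10.4%, and T-like cells 9.42% and 8.83%. Ptprc-low, RNA-rich cells, which were 27.9% and 34.4% of all cells, held 3.27% and 2.18%.

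By level among the named classes, monocyte-like cells stood first in the AIE COF library at 171 CPM (147 to 199), followed by B-like cells at 153 CPM (134 to 173). In the PBS library the order was B-like cells at 138 CPM (110 to 172), then monocyte-like cells at 123 CPM (98.1 to 151). The intervals of these neighbours overlapped in each library. A small unnamed cluster led by Il23r held 5 UMIs in 29 AIE COF cells and 4 in 11 PBS cells, at 88.2 and 136 CPM. A T-like cluster led by Sidt1, Ccl5 and Nkg7 stood at 123 CPM in AIE COF and 76.6 CPM in PBS tumours. Blood endothelial-like cells, which stood above that cluster only in the PBS library, held 96.1 and 85.6 CPM, macrophage-like cells 87.5 and 53.3 CPM and NK-like cells 63.7 and 60.9 CPM. Regulatory-like T cells (55.6 and 50.4 CPM) and naive-like T cells (54.2 and 61.4 CPM) overlapped in their intervals in both libraries. CD8-effector-like T cells stood apart below these at 4.21 CPM (0.509 to 15.2) in AIE COF and 6.94 CPM (2.99 to 13.7) in PBS tumours, from 2 and 8 UMIs in 115 and 245 cells.

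The rarer classes held few Cxcr4 UMIs. Conventional dendritic-like cells had 5 in 20 AIE COF and 7 in 13 PBS cells. Plasma-like cells had 5 in 35 AIE COF and 0 in 10 PBS cells, plasmacytoid dendritic-like cells 3 in 22 and 0 in 6, and mature dendritic-like cells 2 in 30 and 0 in 21. Fibroblast-like cells, the main holders of the ligand, had 1 Cxcr4 UMI in 19 AIE COF cells and 0 in 7 PBS cells. Ligand and receptor were found in the same cell in 4 of 44 blood endothelial-like cells.

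Within macrophage-like cells, Cxcr4 was higher in AIE COF tumours. It stood at 87.5 CPM (82.1 to 93.2) in AIE COF and 53.3 CPM (48.2 to 58.9) in PBS cells, a ratio of 1.64 (1.46 to 1.85). In this class 3.78% of 10207 genes were at least 1.5-fold higher and 6.17% at least 1.5-fold lower. A UMI was found in 38.2% of AIE COF and 24.3% of PBS macrophage-like cells, and in 8.10% and 5.36% with cells thinned to 1000 UMIs, at median depths of 7280 and 6565 UMIs. As a background, Ptprc-low, RNA-poor cells had a Cxcr4 UMI in 9 of 913 AIE COF and 19 of 1847 PBS cells, at medians of 2994 and 2953 UMIs.

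The macrophage-like class was 2 clusters in different proportions, 1128 and 200 AIE COF cells against 600 and 371 PBS cells. In the cluster led by Apoe and Cxcl2, Cxcr4 stood at 96.0 CPM in AIE COF and 71.9 CPM in PBS cells (909 and 350 UMIs), with a ratio of 1.34 (1.18 to 1.52), short of 1.5-fold. In the cluster led by Ccl12, Apoe and Cx3cr1, the levels were 34.3 and 17.2 CPM (52 and 43 UMIs), with a ratio of 1.99 (1.31 to 3.06). Genes at least 1.5-fold higher were 4.92% of those tested in the first cluster and 6.97% in the second. Thinned to 1000 UMIs, the second cluster had a Cxcr4 UMI in 4 of 194 AIE COF and 9 of 354 PBS cells, and its log2 ratio was 0.02.

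Monocyte-like cells, led by Lyz2 and Chil3, held 172 Cxcr4 UMIs in 292 AIE COF cells and 86 in 158 PBS cells. The levels were 171 CPM (147 to 199) and 123 CPM (98.1 to 151), with a ratio of 1.40 (1.07 to 1.83) in a class where 6.91% of genes were at least 1.5-fold higher. A UMI was found in 42.8% of AIE COF and 35.4% of PBS monocyte-like cells, and in 15.3% and 12.4% after thinning. A further cluster of low depth (medians of 816 and 933 UMIs), with Ms4a7 among its leading genes and left unnamed, had 121 CPM in AIE COF and 73.6 CPM in PBS cells (53 and 60 UMIs). Its ratio was 1.65 (1.12 to 2.42), where 9.28% of genes were at least 1.5-fold higher. With cells of at least 500 genes and at most 10% mitochondrial UMIs that ratio turned below 1, at a log2 value of -0.30. Unnamed cells with high MHC class II genes held 99.4 CPM in AIE COF and 62.9 CPM in PBS tumours, from 91 and 94 cells, with a ratio of 1.58 (1.02 to 2.48).

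**Figure D4:**
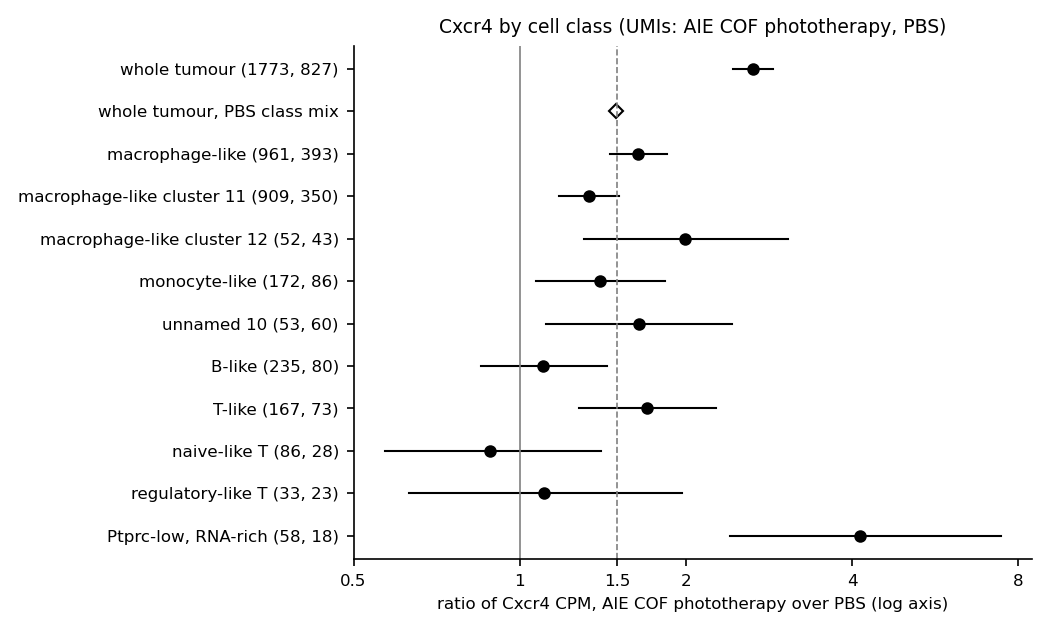
Ratio of Cxcr4 CPM, AIE COF over PBS, on a log axis for the whole tumour and for classes with at least 100 cells in each library and at least 50 Cxcr4 UMIs over both, with exact 95% intervals; UMIs are in brackets, the diamond is the ratio at the PBS class mix and the dashed line is 1.5-fold. Cluster 11 is the Apoe and Cxcl2-led macrophage-like cluster, 12 the Ccl12-led one, and unnamed 10 the unnamed cells of low depth. The whole-tumour ratio of 2.65 lies above that of each leukocyte class, with macrophage-like cells at 1.64, B-like cells at 1.10 and naive-like T cells at 0.88; the ratio of Ptprc-low, RNA-rich cells, 4.13, rests on 58 and 18 UMIs.

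In B-like, naive-like T and regulatory-like T cells the interval of the Cxcr4 ratio held 1. B-like cells held 235 UMIs in 1202 AIE COF cells and 80 in 365 PBS cells, or 153 and 138 CPM, with a ratio of 1.10 (0.85 to 1.44). In B-like cells 6.91% of genes were at least 1.5-fold higher and 4.45% at least 1.5-fold lower. The share of B-like cells with a Cxcr4 UMI was 16.5% in AIE COF and 17.5% in PBS tumours, and 14.2% and 10.2% after thinning, over the 781 AIE COF and 304 PBS cells deep enough for it. Thinned to 500 UMIs the shares were 6.49% and 7.67%, so the direction turned with the depth. Naive-like T cells held 86 UMIs in 1013 AIE COF cells and 28 in 235 PBS cells. The ratio was 0.88 (0.57 to 1.40), beside 9.06% of genes at least 1.5-fold higher. Regulatory-like T cells held 33 and 23 UMIs, with a ratio of 1.10 (0.63 to 1.97), beside 7.24%.

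The T-like class as a whole had a ratio of 1.70 (1.28 to 2.27), from 167 AIE COF and 73 PBS UMIs, beside 7.91% of genes at least 1.5-fold higher. The proportions of its subgroups differed: naive-like cells were 1013 of 1533 AIE COF and 235 of 685 PBS T-like cells, and CD8-effector-like cells, where Cxcr4 was low, were 115 and 245. With cells thinned to 1000 UMIs the log2 ratio of the class was 0.20. The ratio in the Sidt1, Ccl5 and Nkg7-led cluster was 1.61 (0.87 to 3.17), from 46 UMIs in 162 AIE COF cells and 14 in 66 PBS cells, fewer than 100 PBS cells.

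Endothelial Cxcr4 was nearly all in the Flt1-led cells. These held 19 UMIs in 8 of 21 AIE COF cells and 15 in 6 of 12 PBS cells, or 113 CPM (68.3 to 177) and 115 CPM (64.5 to 190), with a ratio of 0.98 (0.47 to 2.08). The Lrg1-led cells held 0 UMIs in 4 AIE COF cells and 1 in 7 PBS cells. Pooled over both libraries, the levels were 114 CPM (79.1 to 160) in Flt1-led and 11.5 CPM (0.291 to 64.0) in Lrg1-led cells, while within each library the intervals of the 2 clusters overlapped.

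In Ptprc-low, RNA-rich cells Cxcr4 was rare, at 0.756 CPM (0.574 to 0.977) in AIE COF and 0.183 CPM (0.108 to 0.289) in PBS tumours, from 58 UMIs in 55 cells and 18 UMIs in 15 cells. Of these, 28 AIE COF and 2 PBS UMIs lay in 1 of its 4 clusters, the one led by Shisal2b and Rhox5 that also had Hist1h1b among its leading genes. The ratio was 4.13 (2.40 to 7.45), beside 4.39% of genes at least 1.5-fold higher. Leukocyte transcripts differed in the same cells. Ptprc was at 14.4 CPM in AIE COF and 5.83 CPM in PBS cells and was detected in 33.9% and 17.1% of them. Of the Cxcr4-positive cells, 30 of 55 AIE COF and 2 of 15 PBS cells also held Ptprc. Among leukocyte marker lists in these cells, 7 of 8 measured B markers, 6 of 10 T markers, 5 of 8 monocyte markers and 4 of 10 macrophage markers were at least 1.5-fold higher in AIE COF tumours. The summed T markers were 15.1 CPM in AIE COF and 8.92 CPM in PBS cells, and the summed macrophage markers 69.1 and 50.7 CPM. The summed B markers were 127 CPM in AIE COF and 141 CPM in PBS cells, with 115 and 137 CPM of that in 1 gene, and the summed monocyte markers 1158 and 1186 CPM, with 784 and 803 CPM in 1 gene. Their part in the Cxcr4 values was not tested. Thinned to 1000 UMIs, a Cxcr4 UMI was left in 1 of 2398 AIE COF and 1 of 2695 PBS cells. In Ptprc-low, RNA-poor cells Cxcr4 stood at 1.43 and 1.42 CPM.

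Ackr3 lay in Ptprc-low and stromal-like cells and was at or near 0 UMIs in leukocytes. T-like cells held 0 UMIs in 1533 AIE COF and 685 PBS cells, which allows shares of cells with a captured UMI of up to 0.196% and 0.438%, and monocyte-like cells held 0 in both libraries. B-like cells held 1 UMI in AIE COF and 0 in PBS tumours, and macrophage-like cells 2 and 1 (0.182 and 0.136 CPM). Over whole tumours Ackr3 was at 4.04 CPM (3.66 to 4.45) in AIE COF and 3.48 CPM (3.16 to 3.82) in PBS tumours, from 415 and 441 UMIs in 296 and 340 cells, with a ratio of 1.16 (1.01 to 1.33).

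Ptprc-low, RNA-rich cells held 314 of the 415 AIE COF and 371 of the 441 PBS Ackr3 UMIs, 75.7% and 84.1%. Their level was 4.09 CPM (3.65 to 4.57) in AIE COF and 3.77 CPM (3.40 to 4.18) in PBS tumours, with a ratio of 1.08 (0.93 to 1.26). A UMI was found in 10.2% of these cells in each library at median depths of 30360 and 35002 UMIs, and in 0.5% and 0.445% after thinning. In the RNA-poor cells the levels were 4.29 and 4.27 CPM, with a ratio of 1.0. Among the RNA-rich clusters, Ackr3 was lowest in the one led by Col3a1 and Cilp, at 2.08 CPM in AIE COF and 2.07 CPM in PBS tumours. Of the 4 clusters it was highest in one led by Dcn, at 5.39 and 5.89 CPM, and the intervals of these 2 clusters did not overlap in either library. In a finer clustering at resolution 2.0, a cluster led by Mt2 with 94 AIE COF and 136 PBS cells held 81 Ackr3 UMIs, at 14.4 CPM. Levels of the RNA-rich cells lay above the 0.182 and 0.136 CPM of macrophage-like cells by far more than counting error.

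In summed UMIs, Ackr3 differed between the libraries in stromal-like cells, by most UMIs in fibroblast-like cells. These held 54 UMIs in 11 of 19 AIE COF cells and 1 UMI in 1 of 7 PBS cells. That was 372 CPM (279 to 485) in AIE COF and 12.6 CPM (0.318 to 70.0) in PBS cells, a ratio of 29.6 (5.09 to 1190). The interval takes each UMI as independent, but 24 of the 54 UMIs lay in 2 cells. As shares of cells with a UMI, 57.9% (33.5 to 79.7) in AIE COF and 14.3% (0.361 to 57.9) in PBS tumours overlapped in their intervals. Single AIE COF fibroblast-like cells held from 0 to 15 Ackr3 UMIs with a median of 1, and single PBS cells 0 or 1 with a median of 0. Without its highest cell the AIE COF level was 289 CPM. In the finer clustering at resolution 2.0, 8 AIE COF and 3 PBS fibroblast-like cells formed a cluster with Col14a1 and Mfap5 among its leading genes. It held 44 Ackr3 UMIs, at 569 CPM over both libraries. The cluster of 11 AIE COF and 4 PBS cells, with Saa3 and Postn among its leading genes, held 11, at 74.6 CPM. Cxcl12 in the same 19 and 7 cells differed by less than its counting error, as given above. Over both libraries, 7 of 26 fibroblast-like cells held Cxcl12 and Ackr3 together. As these are 7 PBS cells of 1 library, the spread between tumours is not measured.

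Endothelial Ackr3 went the same way on fewer UMIs, with 10 in 8 of 25 AIE COF cells and 1 in 1 of 19 PBS cells. The levels were 50.6 CPM (24.3 to 93.0) in AIE COF and 5.35 CPM (0.135 to 29.8) in PBS cells, with a ratio of 9.45 (1.34 to 410). All stromal-like cells together held 65 of the 415 AIE COF and 2 of the 441 PBS Ackr3 UMIs, 15.7% and 0.454%. Their levels were 159 and 6.97 CPM, with a ratio of 22.8 (6.07 to 192). After thinning to 1000 UMIs, 9 of 54 AIE COF and 1 of 28 PBS stromal-like cells held Ackr3. These shares, 16.7% (7.92 to 29.3) and 3.57% (0.0904 to 18.3), overlapped in their intervals. Without thinning they were 37.0% (24.3 to 51.3) and 7.14% (0.877 to 23.5), which did not overlap. When each class had equal weight, the log2 ratio of Ackr3 over the tumour was 2.61, against 0.22 in the summed UMIs.

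Of the other ligands of these receptors, Mif, a cytokine that also binds CXCR4, was at 1346 CPM in AIE COF and 1754 CPM in PBS tumours, with a log2 ratio of -0.38. Hmgb1, a chromatin protein that forms a complex with CXCL12 outside the cell, had a log2 ratio of -0.18. Cxcl14, a chemokine reported to bind CXCR4, was at 4.76 CPM in AIE COF and 3.30 CPM in PBS tumours (log2 ratio 0.53), and in fibroblast-like cells at 406 and 528 CPM. In macrophage-like cells Cxcl14 stood at 30.2 CPM in AIE COF and 46.3 CPM in PBS tumours, from 332 and 341 UMIs. Ptprc-low, RNA-rich cells held 83 AIE COF and 8 PBS UMIs of it, at 1.08 and 0.0813 CPM. Cxcl12 alone of the 4 measured ligands was past 1.5-fold in whole tumours, beside 8.5% of all genes at least 1.5-fold higher. As given above, its ratio turned below 1 with equal weight per cell or thinning.

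Among receptors, Cd74, part of the MIF receptor and the MHC class II invariant chain, had a whole-tumour log2 ratio of 0.36. Within macrophage-like cells it went the other way, at 3418 CPM in AIE COF and 5636 CPM in PBS cells (log2 ratio -0.72), and in B-like cells it was at 8835 and 11034 CPM. Cd44, a hyaluronan receptor that associates with CD74, was at 744 CPM in AIE COF and 518 CPM in PBS tumours (log2 ratio 0.52). In macrophage-like cells Cd44 stood at 1125 and 736 CPM, and in monocyte-like cells at 2315 and 1675 CPM. Calcrl, the adrenomedullin receptor whose peptide ACKR3 also binds, had a log2 ratio of 0.91 over the tumour, and in blood endothelial-like cells it was at 516 CPM in AIE COF and 235 CPM in PBS tumours. Its partner Ramp2 was at 546 and 562 CPM there. Adm, the gene of that peptide, was listed at 0 in both libraries, and the files do not settle whether that 0 is a measured level.

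A list of 104 genes of the axis was counted by role in whole tumours, of which 101 were listed and 94 had at least 50 UMIs. Of these, 26 were at least 1.5-fold higher and 1 at least 1.5-fold lower in AIE COF tumours, with a median log2 ratio of 0.22, beside 8.5% and 4.89% of all 15629 genes and a median of 0.0099. With equal weight for each cell the counts were 20 higher and 8 lower of 94, beside 9.67% and 13.8% of all genes. With cells thinned to 1000 UMIs they were 20 and 6 of 85, beside 7.02% and 7.07% of 10827 genes. The lower counts were thus not above the background share in either setting.

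Retention and egress partners of CXCR4, which hold lymphocytes in tissue or let them leave, had 9 of 10 measured members at least 1.5-fold higher and a median of 1.06. Over all genes in whole tumours, 8.5% were at least 1.5-fold higher. Ccr7, a receptor for lymph node homing, had a log2 ratio of 1.61, S1pr1, the egress receptor, 1.20, and Cd69, which removes S1PR1 from the surface, 1.19. Many of these are lymphocyte genes, and B-like and T-like cells were larger shares of the AIE COF library. The part of these shares in the ratios was not tested. Within B-like cells 1 of 8 measured members was at least 1.5-fold higher and 1 lower, beside 6.91% and 4.45% of all genes. Within naive-like T cells 0 of 7 were past 1.5-fold in either direction, beside 9.06% higher and 5.51% lower. The T-like class as a whole had 3 of 10 higher and 1 lower, beside 7.91% and 11.9%. Regulatory-like T cells had 2 of 8 higher and 0 lower, beside 7.24% of genes higher. Macrophage-like cells had 1 of 9 higher and 1 lower, beside 3.78% and 6.17%. In Ptprc-low, RNA-rich cells 6 of 9 were higher and 0 lower, with a median log2 ratio of 1.21, beside 4.39% of genes higher.

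Genes of G proteins and migration signalling downstream of CXCR4 had a median of 0.30. Of 26 members 9 were at least 1.5-fold higher and 0 lower, beside 8.5% and 4.89% of all genes. The leading ones were Pik3cg (log2 ratio 1.01), the lipid kinase subunit that G proteins activate, Dock2 (0.79) and Elmo1 (0.77), which act together on Rac in leukocytes, and Ptk2b (0.75), a focal adhesion kinase relative. Within B-like cells 0 of 22 were higher and 1 lower, beside 6.91% and 4.45% of all genes of that class. Within macrophage-like cells 0 of 25 were past 1.5-fold in either direction, beside 3.78% and 6.17%, so few members would be past it at the background share.

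Genes of receptor desensitisation and turnover had 3 of 13 higher and 1 lower, with a median of 0.17. Over all genes in whole tumours, 8.5% were at least 1.5-fold higher and 4.89% lower. Rgs1 (log2 ratio 1.05), Rgs2 (0.86) and Rgs18 (0.85), which shorten G protein signals, were higher. Rgs16 of the same family was lower (-1.12), from 25 AIE COF and 67 PBS UMIs. Of genes that process the ligand or bind it in the matrix, 2 of 11 were higher, with a median of 0.12: Dpp4 (0.89), a peptidase that inactivates CXCL12, and Ctsk (0.80), a cathepsin that can cleave it. Regulators of Cxcr4 or Cxcl12 transcription (0 of 14) and stromal niche genes (0 of 10) had no member past 1.5-fold in either direction, with medians of 0.096 and -0.12. At the shares of all genes, few members of lists this short would be past it. Hif1a, a known activator of both genes, was likewise listed at 0, which is not read as a lack of expression.

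**Figure D5:**
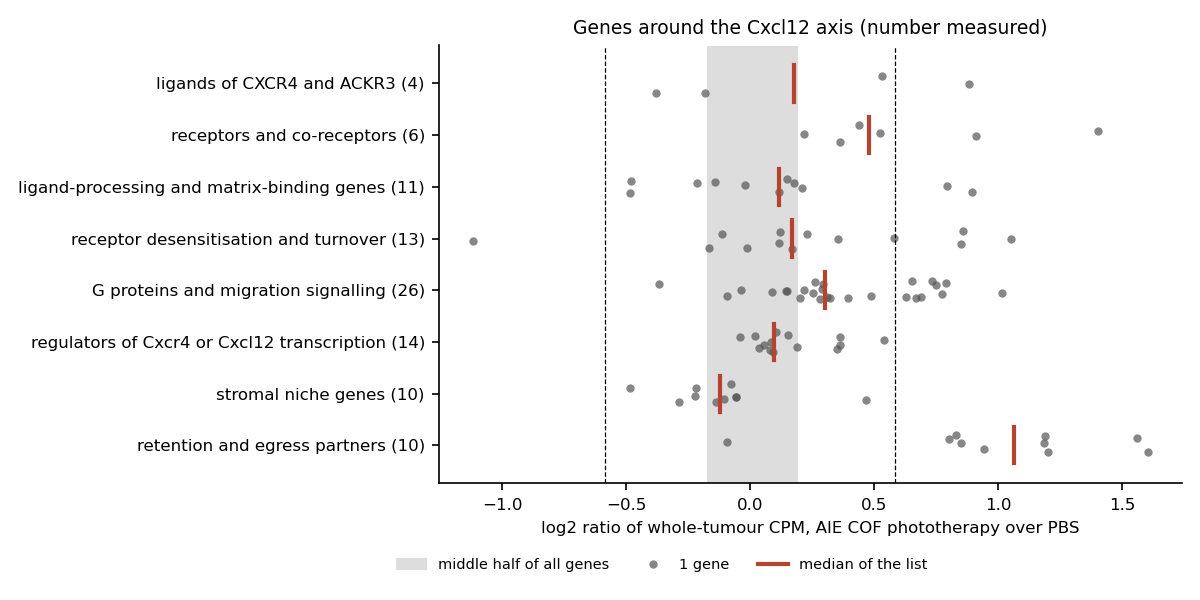
Log2 ratio of CPM, AIE COF over PBS, for each measured gene of the axis in whole tumours, by role; each point is 1 gene, red bars are list medians, dashed lines are 1.5-fold and the grey band is the middle 50% of all genes. The retention and egress list lies highest, with a median of 1.06, and stromal niche genes lie around -0.12.

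Across 34 class-by-library units, the genes with levels most like each member were found among 11084 genes that reached 20 CPM in a unit. Units of the same library or the same class share depth and preparation, so the correlations are descriptions. Cxcl12 was most like Adamts2 (Pearson r = 0.98), Akr1c14, Sfrp4 and Mmp3 (0.97 each), all highest in stromal-like cells. Without the stromal-like units these values were between 0.16 and 0.58 over 32 units. Cxcr4 was most like Tcp11l2 (0.88), Exoc6 (0.84), Elmo1 (0.83), Slc16a6 (0.83) and Aig1 (0.82), all highest in monocyte-like cells, and without that class the values were between 0.81 and 0.88. Ackr3 was most like Gm12648 (0.85), Postn (0.84), Mecom (0.83), Nnmt (0.83) and Gchfr (0.82), and without the stromal-like units between 0.66 and 0.81.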

How the data were processed

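The 3 genes and the gene lists were chosen with earlier results of these data known. The values the authors deposited are raw UMI counts, whole numbers for each gene in each barcode. Per the submitters' processing notes, STAR and mm10 were used; the versions, counter and gene annotation are not stated there. No barcode had under 500 UMIs, and smaller ones are not analysed here.

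Barcodes with at least 200 genes and at most 20% mitochondrial UMIs were kept (9313 of 10002 AIE COF, 8433 of 8962 PBS). The highest Scrublet scores were removed as doublets at 0.8% per 1000 barcodes (694 and 569). With scanpy 1.11.5 (Python 3.11.15), each cell was scaled to 10000 UMIs and logged, and the libraries were clustered jointly by Leiden at resolution 1.0 from 2000 variable genes, 30 components and 15 neighbours. T-like, dendritic and stromal clusters were clustered again where the set was large enough, and stromal names were given only after that step. Names needed at least 3 markers, and over 50% of a type's list, to be at 25% or more of their top level and in 5% or more of the cells, a rule set after clusters of these data had been seen. Clusters under 100 CPM of Ptprc were called RNA-rich at a median of at least 10000 UMIs, otherwise RNA-poor.

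UMIs were summed per library and class and given as CPM of that sum. Levels carry exact Poisson intervals, shares Clopper-Pearson intervals and ratios conditional binomial intervals (SciPy 1.17.1). Only the ratio intervals were checked, on simulated Poisson counts of whole-tumour genes with at least 50 UMIs. Those counts hold no spread between cells and no small class, so the check does not bear on the stromal ratios. With 1 library per group there is no p-value. A gene was counted as higher or lower past 1.5-fold with at least 50 UMIs in the 2 libraries. A share of 0 is given with the limit that 3 counts set. Named genes were all axis ligands and receptors with values, up to 4 per other list with the largest ratios past 1.5-fold, and the 5 genes most like each member; a few genes under this rule are not reported here. Likeness was Pearson's r of log2(CPM + 1). 32158 of 32285 gene IDs were found in GENCODE M21. Alternatives were equal weight per cell or class, thinning, scaling by the median gene, filters, doublets left in, resolution 2.0 and separate clustering. Of 104 axis symbols, 101 were listed.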

Additional observations from a re-analysis of the deposited data

How the results depend on the processing

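No paired analysis was possible because each group is 1 library. Under the alternatives, 110 values stayed within their counting interval (gene counts within 1.5 times), 37 moved further and 3 that had been past 1.5-fold turned direction. Ratios whose interval held 1 also crossed 1 within it: Cxcr4 in B-like cells and in regulatory-like T cells (lowest log2 -0.45, at resolution 2.0) and Ackr3 in both Ptprc-low classes. Log2 ratios are AIE COF over PBS, and where a value moved the cause was not tested. Whole-tumour Cxcl12 was -0.18 with equal weight per cell and -0.16 thinned to 1000 UMIs, 0.054 with equal weight per class and 0.40 at the PBS class mix. Whole-tumour Cxcr4 was 1.08, 1.04, 0.38 and 0.58 under these 4 settings, and Ackr3 was 2.61 with equal weight per class. Thinned to 1000 UMIs, Cxcr4 was 0.20 in T-like cells, 0.020 in the Ccl12-led macrophage-like cluster and 0.17 in Ptprc-low, RNA-rich cells, and Ackr3 was 1.28 in RNA-poor cells. Cxcr4 in the unnamed cluster of low depth was -0.30 with at least 500 genes and at most 10% mitochondrial UMIs.

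Shares of cells with a UMI followed the depth used. Thinned to 500 UMIs, Cxcr4 was found in 6.49% of AIE COF and 7.67% of PBS B-like cells, 2.47% of AIE COF and 1.28% of PBS naive-like T cells, 3.92% and 3.19% of macrophage-like cells and 6.85% and 6.33% of monocyte-like cells. Ackr3 was then found in 5.56% of AIE COF and 0% of PBS stromal-like cells and in 0.0416% of AIE COF and 0.296% of PBS Ptprc-low, RNA-rich cells, and Cxcl12 in 11.1% and 17.9% of stromal-like cells. Without thinning, Cxcr4 was found in 17.5% of PBS B-like cells, 7.70% of AIE COF naive-like T cells, 38.2% of AIE COF and 24.3% of PBS macrophage-like cells and 42.8% and 35.4% of monocyte-like cells. Unthinned Cxcl12 was found in 33.3% of AIE COF and 50% of PBS stromal-like cells, and Ackr3 in 37.0% of AIE COF stromal-like cells and 10.2% of Ptprc-low, RNA-rich cells in each library (10.22% and 10.20%). With the PBS library clustered alone there was no stromal-like class, so stromal comparisons have no value there. At resolution 2.0, RNA-rich cells held 87.8% of PBS Ackr3 UMIs. Axis genes at least 1.5-fold lower numbered 0 of 92 with at least 200 UMIs, beside 2.35% of all genes. They numbered 8 of 94 with equal weight per cell, beside 13.8%, and 6 of 85 thinned to 1000 UMIs, beside 7.07%. At least 2-fold higher were 8 of 94 axis genes, beside 3.07% of all genes. The PBS class mix and leaving out the highest cell were chosen after seeing the data. Cell classes under 100 cells in a library, the stromal ones among them, are limited by cell number.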
